A study of Mus musculus with 6 samples.

Results

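The contractile genes of smooth muscle were followed in MHCIIhi cells sorted from the muscularis externa (ME) of the mouse small bowel. The set held the 10 genes Acta2, Actg2, Myh11, Tagln, Cnn1, Des, Myl9, Lmod1, Synpo2 and Smtn, which were taken by their symbol from a table of 26110 genes, and all 10 had a row. Bulk RNA-seq had been made from 3 libraries of MHCIIhiCX3CR1- cells and 3 libraries of MHCIIhiCX3CR1+ cells, in order to compare the transcriptomes of these populations. Both groups came from mice of the genotype CX3CR1+/GFP, in which GFP from one Cx3cr1 allele marks the CX3CR1+ cells, and no mouse had received a treatment. The ME of several mice was pooled for a sort, and the labels give neither age nor which mice went into which library. They call the cells dendritic cells, whereas the study calls them macrophages. A replicate is therefore a library, and the p-values cover the spread between these libraries, which may be technical.

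The ME is the muscle coat of the gut. Its smooth muscle cells shorten when calcium activates myosin light chain kinase, which phosphorylates the regulatory light chain of smooth muscle myosin, so that myosin pulls on thin filaments of smooth muscle actin. Calponin, transgelin, smoothelin and leiomodin bind or build the thin filaments, and desmin ties the contractile units to the cell cortex. Many of the genes are switched on by serum response factor (SRF) with its partner myocardin through a short DNA element, the CArG box. Macrophages of the ME lie between the muscle cells, and a sort on MHCII and CX3CR1 is not meant to collect muscle cells.

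The values are normalized between libraries by the authors and are not divided by transcript length. The value of a single read was taken in each library as the smallest among its most frequent non-zero values. It gave about 5346381 to 17616764 assigned reads per library, and a level of 3 reads lay between 1.39 and 5.36. Genes of the mitochondrial genome took 47.5 to 54.9% of the normalized total in the CX3CR1- libraries and 18.1 to 21.2% in the CX3CR1+ libraries. The 8 macrophage markers summed to 6982 to 8488 in the CX3CR1- and 36300 to 38770 in the CX3CR1+ libraries, whereas the 6 markers of conventional dendritic cells summed to 2590 to 3026 and 286.8 to 336.0. Fold changes are log2 differences of (value + 1), CX3CR1- minus CX3CR1+, from limma over 17812 genes with a mean of at least 10. A gene was called at a Benjamini-Hochberg adjusted p of at most 0.05 if the log2 fold change was also at least 1 in size.

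Contractile transcripts were measured in every library of both populations, and their sum did not separate the groups. The 10 genes together reached 3702, 1339 and 3788 in CX3CR1- replicates 1, 2 and 3, and 2627, 3544 and 3091 in CX3CR1+ replicates 1, 2 and 3. The mean sum was 2943 ± 1390 in CX3CR1- and 3087 ± 458.7 in CX3CR1+ libraries (SD, n = 3 each), a ratio of 0.953. The groups overlapped, with the lowest sum in CX3CR1- replicate 2 and the highest in CX3CR1- replicate 3. Of the normalized total without mitochondrially encoded genes, the 10 genes took 0.0219 to 0.0706% in CX3CR1- and 0.0409 to 0.0536% in CX3CR1+ libraries. In such bulk samples, a different number of muscle cells and a different amount of RNA per cell cannot be told apart.

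By gene, 1 of the 10, the smoothelin gene Smtn, rose in CX3CR1- cells, where 12.2% of all tested genes were called higher. None of the 10 fell, where 8.15% of all tested genes were called lower, and 9 passed neither way. All 10 genes had passed the filter on low values. At an unadjusted p under 0.05 there were 2 of the 10, Smtn and Lmod1, both higher. The same 2 genes had groups that did not overlap, compared to 40.0% of all tested genes. The estimate was below 0 for 7 genes and above 0 for 3, and the 95% interval included 0 for 8. The median log2 fold change of the 10 was -0.22, and it was -0.0035 over all tested genes. Without CX3CR1- replicate 2 the median of the 10 turned to 0.31. A missed threshold does not show equal levels here, since the intervals of the single genes reached from as low as -1.85 to as high as 1.79.

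**Figure D1:**
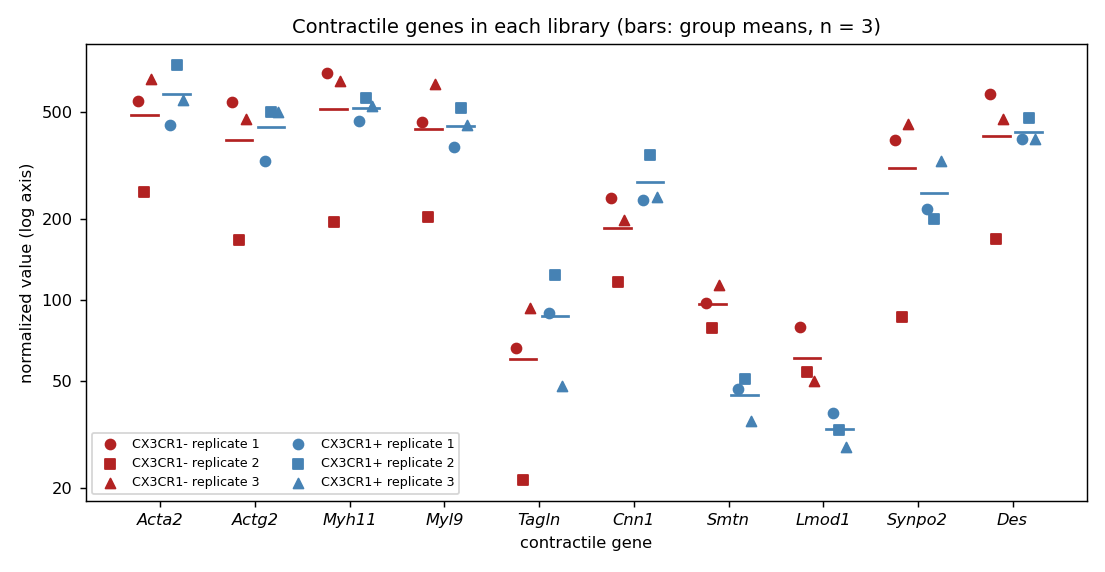
Normalized value (log axis) of the 10 contractile genes in each of the 6 libraries, with CX3CR1- in red, CX3CR1+ in blue, a marker shape for each replicate and a bar at each group mean (n = 3). The red square of CX3CR1- replicate 2 is the lowest point for 8 of the 10 genes, and the red and blue points are apart for Smtn and Lmod1.

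**Figure D2:**
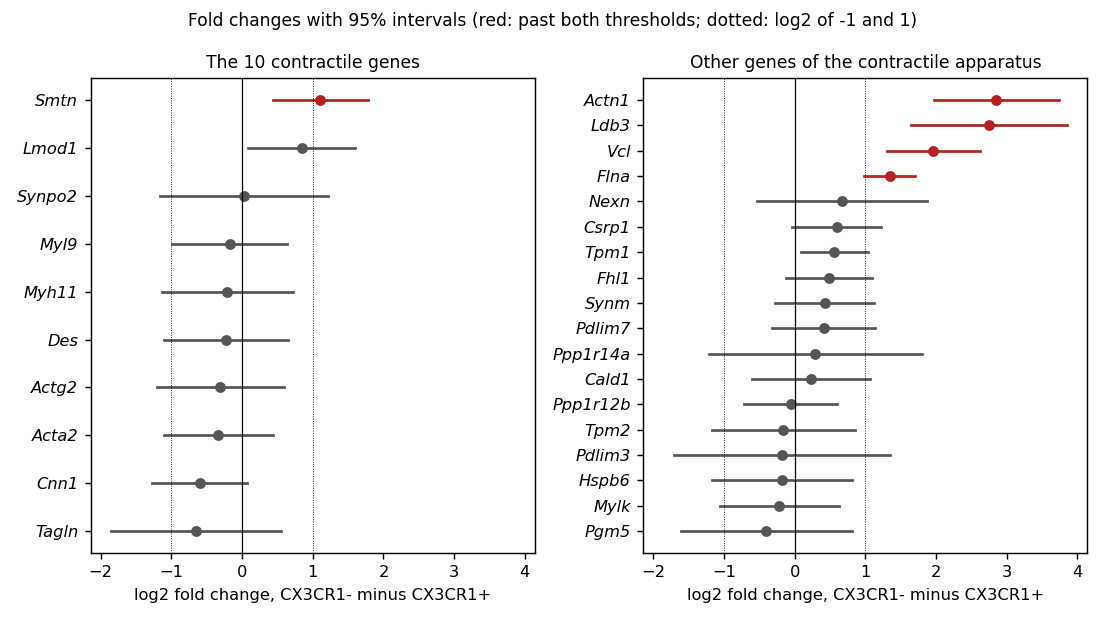
Log2 fold changes (CX3CR1- minus CX3CR1+, points) with 95% intervals (lines) of the 10 contractile genes, left, and of 18 other genes of the contractile apparatus, right, where red marks genes past both thresholds. Smtn stands alone in red on the left, and Actn1, Ldb3, Vcl and Flna are red on the right.

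Acta2 and Actg2 code for the smooth muscle actins, Acta2 for the alpha form typical of vessels and Actg2 for the gamma form typical of the gut wall. Acta2 (chromosome 19, 34241090 to 34255590, minus strand, GRCm38) had values of 548, 250 and 663 in CX3CR1- replicates 1 to 3, and of 446, 746 and 552 in CX3CR1+ replicates 1 to 3. Actg2 (chromosome 6, 83512905 to 83536265, minus strand) had values of 544, 167 and 470 in CX3CR1- and of 327, 497 and 496 in CX3CR1+ libraries. Both actins were lowest in CX3CR1- replicate 2, and the groups overlapped. The log2 fold change was -0.34 for Acta2 (95% interval -1.11 to 0.43, adjusted p = 0.532) and -0.31 for Actg2 (-1.20 to 0.59, adjusted p = 0.635). Without CX3CR1- replicate 2 the estimates were 0.08 and 0.23.

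Since these actins are close copies of each other, the sequence by which reads can be assigned to one or the other matters for both values. Over the last 1116 bases of the coding sequences (GENCODE release M21), 941 bases were identical (84.3%). The longest identical run had 29 bases, shorter than the 31-base words by which Kallisto assigns reads at its default setting. None of the 1042 windows of 75 bases was identical. The stretch around this longest run, bases 604 to 662 counted from 1 at the first compared base, is shown 5′ to 3′ on the coding strand with the 9 differing bases in capitals.
Acta2: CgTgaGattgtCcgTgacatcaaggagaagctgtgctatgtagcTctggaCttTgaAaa
Actg2: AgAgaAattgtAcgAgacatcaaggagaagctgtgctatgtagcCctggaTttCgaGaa
Of all 31-base words in the Acta2 transcripts, 1.39% also occurred in another gene, and 1.21% for Actg2. The ratio of Actg2 to Acta2 values ranged from 0.666 to 0.992 over the 6 libraries.

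Myh11, the smooth muscle myosin heavy chain, and Myl9, the regulatory light chain that the kinase phosphorylates, followed the actins. Myh11 (chromosome 16, 14194535 to 14291372, minus strand) had values of 696, 195 and 647 in CX3CR1- and of 461, 560 and 524 in CX3CR1+ libraries. Myl9 (chromosome 2, 156775420 to 156781658, plus strand) had values of 458, 202 and 635 in CX3CR1- and of 370, 516 and 445 in CX3CR1+ libraries. In both genes the CX3CR1- group held the highest and the lowest library. The log2 fold change was -0.21 for Myh11 (-1.13 to 0.71, adjusted p = 0.763) and -0.18 for Myl9 (-0.99 to 0.64, adjusted p = 0.772). Without CX3CR1- replicate 2 these became 0.39 and 0.29.

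The region before the start of Acta2 and Myl9 is shown because both held CArG boxes. A link between the boxes and the values was not tested. Of the 10 genes, 7 were found in the RefSeq promoter table (GRCm38.p6), with 250 bases before and 50 bases after the start. The strict CArG box, CC, then 6 bases that are each A or T, then GG, reads as the same kind of motif on both strands. It occurred in 1 of these 7 promoters, that of Myl9, and in 1.63% of all 32851 promoters. A looser form, which allows 1 G or C among the inner 6 bases and was chosen after the strict result was known, occurred in 2 of the 7, Acta2 and Myl9, and in 9.98% of all promoters. Boxes in capitals begin 84 and 34 bases before the start of Acta2 (chr19:34255378-34255477, minus strand) and 161 and 99 bases before that of Myl9 (chr2:156775283-156775394, plus strand), written 5′ to 3′ on the gene's strand. The start is that of RefSeq, and the GENCODE records of Acta2, Cnn1, Lmod1, Myl9 and Smtn begin farther upstream. That of Smtn begins at 3540612, outside its window of 3539243 to 3539542.
Acta2: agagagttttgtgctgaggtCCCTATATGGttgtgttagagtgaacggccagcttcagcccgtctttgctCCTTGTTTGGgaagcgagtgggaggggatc
Myl9: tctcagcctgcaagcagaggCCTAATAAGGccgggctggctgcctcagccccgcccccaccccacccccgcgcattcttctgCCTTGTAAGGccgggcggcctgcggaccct
The first box shown for Myl9 is the strict one. No box of either form was found in these windows of Cnn1, Des, Lmod1, Smtn and Synpo2, which says only that these letters are not there. Actg2, Myh11 and Tagln were not in the promoter table.

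Des, the gene of the muscle intermediate filament desmin (chromosome 1, 75360329 to 75368579, plus strand), had values of 582, 168 and 471 in CX3CR1- and of 396, 472 and 394 in CX3CR1+ libraries. CX3CR1- replicate 2 lay below the 5 other libraries, which ranged from 394 to 582. The log2 fold change was -0.22 (-1.10 to 0.65, adjusted p = 0.729), and 0.32 without that library. Of the 31-base words of Des, 5.12% were shared with Gm15179 on the opposite strand, and strand was not kept by the library kit. Gm15179 had no row among the values, and whether it took reads of Des is not known.

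Tagln, Cnn1 and Synpo2 code for partners of the actin filament. Tagln, transgelin (chromosome 9, 45929619 to 45936058, minus strand), had values of 66.3, 21.4 and 92.8 in CX3CR1- and of 89.1, 123 and 47.9 in CX3CR1+ libraries. Cnn1, calponin 1 (chromosome 9, 22099216 to 22109630, plus strand), had values of 239, 117 and 198 in CX3CR1- and of 235, 345 and 240 in CX3CR1+ libraries. Synpo2, an actin-bundling protein of the Z disc and of smooth muscle (chromosome 3, 123076519 to 123236149, minus strand), had values of 392, 86.3 and 448 in CX3CR1- and of 218, 200 and 329 in CX3CR1+ libraries. All of these overlapped between the groups, and each was lowest in CX3CR1- replicate 2. The log2 fold change was -0.65 for Tagln (-1.85 to 0.55, adjusted p = 0.432), -0.60 for Cnn1 (-1.27 to 0.07, adjusted p = 0.183) and 0.03 for Synpo2 (-1.16 to 1.22, adjusted p = 0.977). The estimates of Tagln and Cnn1 stayed below 0 without CX3CR1- replicate 2, at -0.04 and -0.30, whereas that of Synpo2 became 0.78 (adjusted p = 0.0553). Of the 31-base words of Tagln, 58.2% were shared with Gm48529, a gene on the opposite strand, and 3.93% with Pcsk7. These words are of GENCODE release M21, whereas the values rest on release M16, and Gm48529 had no row among the values. Whether Gm48529 took reads of Tagln is not known, so the value of Tagln remains uncertain. In its lowest library Tagln rested on about 11.9 reads.

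Smtn, the gene of smoothelin, an actin-binding protein of contractile smooth muscle, was the one contractile gene past both thresholds. Smtn (chromosome 11, 3517523 to 3540612, minus strand) had values of 97.5, 78.3 and 113 in CX3CR1- and of 46.5, 50.5 and 35.4 in CX3CR1+ libraries. Every CX3CR1- library was above every CX3CR1+ library, which 20.3% of all tested genes shared. The mean was 96.4 ± 17.6 (SD, n = 3) against 44.2 ± 7.82 (SD, n = 3), with a log2 fold change of 1.11 (0.43 to 1.79, limma adjusted p = 0.0233). The fitted change was 2.16-fold with an interval from 1.35-fold to 3.45-fold. The exact two-sided permutation test gave p = 0.1, the smallest value it can give for 3 libraries against 3. The estimate stayed above 0 in all 16 alternative settings, between 0.86 and 1.28, and passed both thresholds in 9 of them. Leaving out any library other than CX3CR1- replicate 2 ended the call, with adjusted p of 0.0529 to 0.0929. Of the 31-base words of Smtn, 12% were shared with Gm11946 on the opposite strand. Gm11946 had a value of 109 in CX3CR1- replicate 1 and of 2.85 to 9.25 in the 5 other libraries. The highest value of Smtn was in CX3CR1- replicate 3.

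Lmod1, leiomodin 1, which starts new actin filaments in smooth muscle (chromosome 1, 135324807 to 135368065, plus strand), had the same order of groups at a lower level. Its values were 79.3, 53.6 and 49.9 in CX3CR1- and 37.9, 32.8 and 28.3 in CX3CR1+ libraries, with no overlap. The log2 fold change of 0.84 (0.09 to 1.60) had an unadjusted p of 0.0325 and an adjusted p of 0.103 from limma, so that Lmod1 was not called. It was also not called in any of the 15 alternative settings in which it was tested, with estimates from 0.53 to 1.01. None of its 31-base words was shared with another gene. In its lowest library, CX3CR1+ replicate 3, Lmod1 rested on about 20 reads and Smtn on about 25.0 reads.

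The contractile genes spread more among the CX3CR1- than among the CX3CR1+ libraries. The SD of log2(value + 1) was larger in CX3CR1- than in CX3CR1+ libraries for 10 of the 10 genes, and for 70.0% of all tested genes. For Smtn the SD was nearly equal, at 0.265 in CX3CR1- and 0.262 in CX3CR1+ libraries. The median SD of the 10 genes was 0.887 in CX3CR1- and 0.287 in CX3CR1+ libraries, compared to 0.469 and 0.296 over all tested genes. In CX3CR1- cells the highest library exceeded the lowest 5.19-fold for Synpo2, 4.35-fold for Tagln and 3.57-fold for Myh11. In CX3CR1+ cells the same ratios were 1.64, 2.57 and 1.21. Smtn and Lmod1 varied least among the CX3CR1- libraries, with ratios of 1.45 and 1.59.

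CX3CR1- replicate 2 stood below its group for most of the contractile genes. It was the lowest of all 6 libraries for 8 of the 10 genes, and for 20.2% of all tested genes. Its value was 34.9% of the mean of the other two CX3CR1- libraries in the median of the 10 genes, from 20.6% for Synpo2 to 83.1% for Lmod1. Over all tested genes this median was 96.7%. This library had about 6517536 reads, and CX3CR1+ replicate 3, the lowest for Smtn and Lmod1 only, had about 5346381. These totals include mitochondrially encoded genes, which took 47.5% of the normalized total in CX3CR1- replicate 2 and 18.1% in CX3CR1+ replicate 3. A level of 3 reads was 5.36 in the former and 4.25 in the latter. The part of depth in the low values was not tested. When CX3CR1- replicate 2 was set aside, a step added after the values were seen, replicates 1 and 3 were above every CX3CR1+ library for 4 of the 10 genes, Myh11, Smtn, Lmod1 and Synpo2. The same held for 26.7% of all tested genes. Smtn remained the 1 called gene of the 10 in that fit.

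**Figure D3:**
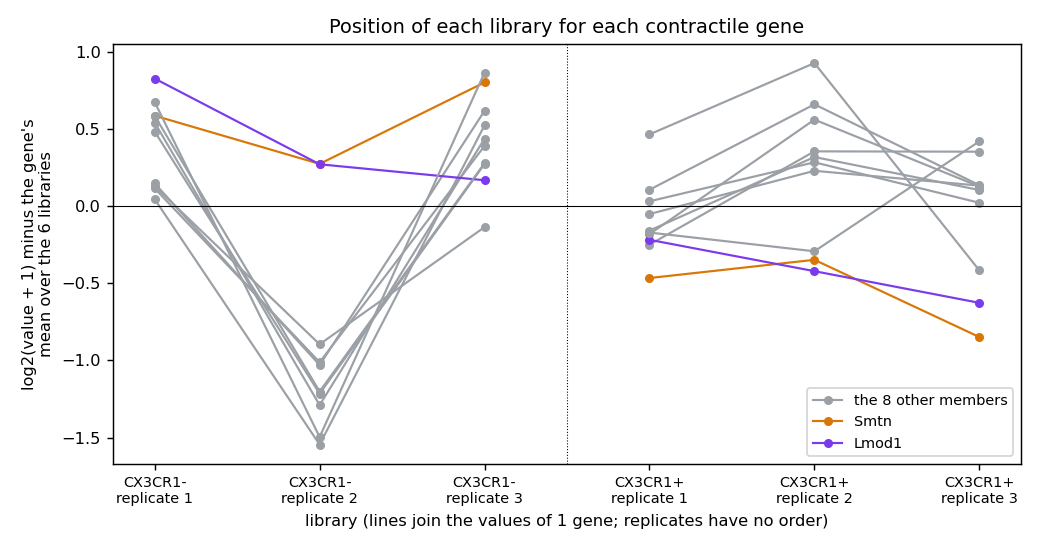
Log2(value + 1) of each contractile gene minus its mean over the 6 libraries, by library, with a line for each gene that joins its values within a group (replicates have no order). The 8 grey genes lie below 0 in CX3CR1- replicate 2, whereas Smtn and Lmod1 lie above 0 in all CX3CR1- libraries and below 0 in all CX3CR1+ libraries.

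Over the 6 libraries, the proportions among the genes of the contractile core varied less than their levels. Within the CX3CR1+ libraries this did not hold throughout, since Des varied 1.2-fold but the ratio of Des to Actg2 went from 0.793 to 1.21. The ratio of Myh11 to Actg2 values was 1.28, 1.17 and 1.38 in CX3CR1- and 1.41, 1.13 and 1.06 in CX3CR1+ libraries. The ratio of Myl9 to Acta2 ranged from 0.691 to 0.958 over the 6 libraries, and that of Des to Actg2 from 0.793 to 1.21. Cnn1 to Acta2 ranged from 0.299 to 0.527 and Tagln to Acta2 from 0.0853 to 0.2. CX3CR1- replicate 2 lay inside the range of the other libraries for Myh11 to Actg2, Des to Actg2 and Myl9 to Acta2. The ratio of Smtn to Myh11 was different in this respect, at 0.402 in CX3CR1- replicate 2, 0.140 and 0.175 in CX3CR1- replicates 1 and 3 and 0.0676 to 0.101 in CX3CR1+ libraries. That of Lmod1 to Myh11 was 0.275 in CX3CR1- replicate 2 and 0.0541 to 0.114 in the 5 other libraries.

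Levels were compared between genes after division by the length of one transcript per gene, in normalized value per kb. Myl9 was the highest in both groups, at 382.8 ± 193 in CX3CR1- and 393.4 ± 64.5 in CX3CR1+ libraries (SD, n = 3 each). Actg2 followed at 295.1 ± 150 and 330.1 ± 73.7, and Acta2 at 239.4 ± 105 and 285.8 ± 74.9. Neither Myl9 and Actg2 nor Actg2 and Acta2 differed beyond their SD, whereas Acta2 lay above the next gene, in CX3CR1- libraries by only about its SD. This SD is a spread between libraries and does not use the pairing of genes within a library. Des came next at 134.4 ± 70.8 and 139.0 ± 14.8. In CX3CR1- libraries it lay within its SD of the gene that followed. In CX3CR1+ libraries its distance to the next gene, Cnn1, was within the SD of Cnn1 but larger than the SD of Des. Cnn1 lay at 77.5 ± 26.1 in CX3CR1- and 114.8 ± 26.2 in CX3CR1+ libraries, and Myh11 at 79.5 ± 42.8 and 79.9 ± 7.78, so that their order turned between the groups, and they differed beyond their SD in CX3CR1+ libraries only. Tagln had 37.7 ± 22.7 and 54.4 ± 23.6, and Synpo2 43.7 ± 27.6 and 35.2 ± 9.86, which did not differ beyond their SD in either group. Smtn, at 28.5 ± 5.18 and 13.0 ± 2.31, and Lmod1, at 15.4 ± 4.06 and 8.36 ± 1.22, were the lowest in both groups. Estimates of length rest on one annotated transcript, and the isoform in these cells was not measured.

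**Figure D4:**
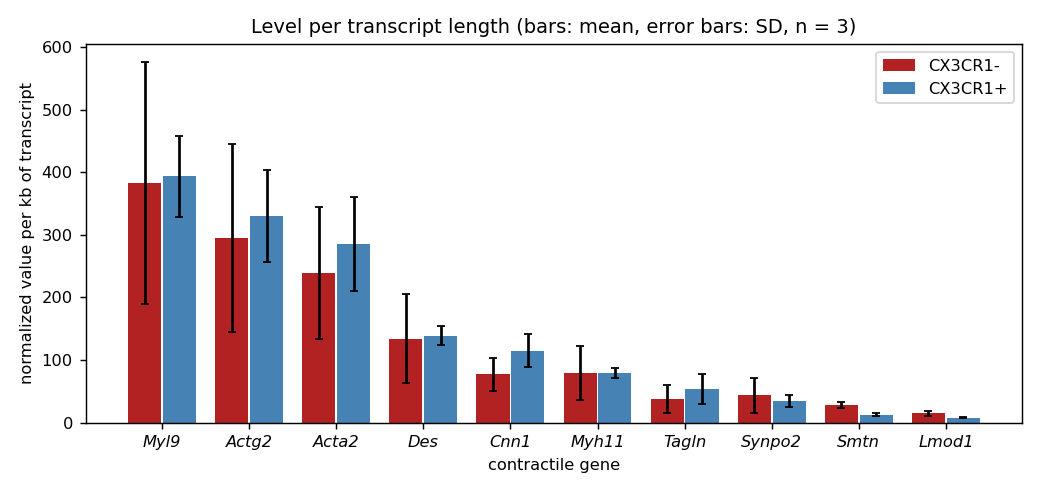
Normalized value per kb of transcript of the 10 contractile genes in CX3CR1- (red) and CX3CR1+ (blue) libraries, as means (bars) with the SD over 3 libraries (error bars). The order falls from Myl9, at 382.8 and 393.4, to Lmod1, at 15.4 and 8.36, and the error bars of the groups overlap except for Smtn and Lmod1.

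Of 18 other genes of the contractile apparatus, all of which were tested, 4 rose in CX3CR1- cells and none fell. Their median log2 fold change was 0.42, and 12.2% of all tested genes were called higher and 8.15% lower. The 4 were Actn1, Ldb3, Vcl and Flna, which code for actin crosslinkers and adhesion proteins that many cell types use, apart from Ldb3 of the Z disc. Actn1, alpha-actinin 1, had the largest change, from 31 ± 13.3 in CX3CR1+ to 233 ± 107 in CX3CR1- libraries (SD, n = 3 each) (log2 fold change 2.85, limma adjusted p = 0.000542). Actn1, Ldb3, Vcl and Flna were also the called genes of this list under each of the 3 rescalings and with each library left out. The kinase and regulators that act on the myosin and thin filament of smooth muscle passed in neither direction. Mylk, myosin light chain kinase, had values of 2124, 734 and 2400 in CX3CR1- and of 1492, 2089 and 1879 in CX3CR1+ libraries, again with CX3CR1- replicate 2 lowest. Its log2 fold change was -0.21 (-1.06 to 0.63, adjusted p = 0.731). Cald1, caldesmon, was at 0.23 (-0.60 to 1.07), Tpm1 and Tpm2, the tropomyosins of smooth muscle, were at 0.56 (0.09 to 1.03, adjusted p = 0.0842) and -0.16 (-1.17 to 0.86), and Pgm5 had the lowest estimate, -0.40.

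Among 7 tested genes of SRF and myocardin regulation, 3 rose (Gata6, Foxf1 and Mkl2) and none fell, with a median log2 fold change of 1.21. The shares over all tested genes were 12.2% called higher and 8.15% called lower. Srf itself was at 288 ± 31.4 in CX3CR1- and 194 ± 8.99 in CX3CR1+ libraries (SD, n = 3 each) (log2 fold change 0.56, 0.11 to 1.02, adjusted p = 0.0728). Myocd, the muscle-specific partner of SRF, was low in both groups, at 18.6 ± 20.2 and 21.0 ± 2.01. Gata6, a transcription factor of several tissues, was at 55.5 ± 8.05 in CX3CR1- libraries and below the level of 3 reads in all CX3CR1+ libraries. Of 12 tested genes of calcium, nitric oxide and receptor signalling in smooth muscle, 5 rose (Itpr1, Gucy1a3, Gucy1b3, Pln and Ryr2) and none fell, with a median of 1.18. Kcnmb1, the smooth muscle subunit of the large-conductance potassium channel, was at 32.0 ± 16.7 and 29.8 ± 8.23 (log2 fold change 0.03, -0.999 to 1.05). Chrm2, the muscarinic receptor M2, was at 22.0 ± 10.8 and 20.7 ± 8.39 (log2 fold change 0.05, -1.08 to 1.19).

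The counterparts of these genes in non-muscle cells showed another pattern over the libraries. Of 16 tested genes, 4 rose (Actg1, Cnn2, Cnn3 and Vim) and 1 fell (Myh10), with a median log2 fold change of 0.51. Among all tested genes 12.2% were called higher and 8.15% lower. Actg1, cytoplasmic gamma actin, was at 7117 ± 798 in CX3CR1- and 2915 ± 186 in CX3CR1+ libraries (SD, n = 3 each) (log2 fold change 1.28, limma adjusted p = 0.000119). Cnn2, a calponin of non-muscle cells, had a log2 fold change of 1.75 (1.24 to 2.27), whereas Cnn1 had -0.60. Myh10, a non-muscle myosin heavy chain, had a log2 fold change of -1.06 (limma adjusted p = 0.00895). Actb, Myh9, Myl6 and Tagln2 were not called, at 0.65, 0.23, 0.60 and 0.28. CX3CR1- replicate 2 was the lowest of the 6 libraries for 0 of the 16 genes, and its value was 114% of the other two CX3CR1- libraries in the median, compared to 34.9% for the contractile genes.

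The summed markers of most other cells of the gut wall were higher in every CX3CR1- than in any CX3CR1+ library, whereas the sums of the contractile genes overlapped. Counts of single markers that rose stand beside 12.2% of all tested genes called higher in CX3CR1- cells. The 6 pericyte genes summed to 1909 to 9479 in CX3CR1- and 1092 to 1391 in CX3CR1+ libraries, and 5 of 6 rose. All 6 fibroblast genes rose, from sums of 180.5 to 316.4 in CX3CR1+ to 4117 to 12170 in CX3CR1- libraries, a ratio of means of 31.7. For enteric glia and neurons 3 of 7 tested genes rose, with sums of 161.3 to 700.0 against 102.5 to 151.0, and for endothelium 2 of 4 rose, with sums of 647.2 to 862.4 against 319.0 to 582.7. All 5 epithelial genes rose, with sums of 15200 to 26030 against 20.3 to 38.5. Interstitial cells of Cajal, the pacemakers of the gut, had 1 of 3 tested genes called, Kit, and sums of 353.9 to 1159 against 451.2 to 692.7. Mesothelial genes summed to 33.5 to 245 against 19.6 to 36.6, with 1 of 3 called. Of 10 genes of striated muscle 6 had a row, and they summed to 162.2 to 337.0 against 39.0 to 61.5, with 2 of 4 tested genes called, Ttn and Tnnt3. None of these markers was at 0 in all libraries of a group, and Acta1, Tnnt3, Uchl1, Tubb3, Msln, Upk3b, Epcam and Krt20 were at 0 in at least 1 library. The part of these cells in the contractile values was not tested.

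CX3CR1- replicate 2 was low for several of these lists as well. As a median over genes, its value relative to the other two CX3CR1- libraries was 24.5% for pericyte, 25.9% for glia and neuron, 29.2% for interstitial cell of Cajal and 48.1% for fibroblast genes. It was 102% for epithelial, 113% for macrophage and 121% for conventional dendritic cell genes. Between these lay mesothelial genes at 49.3%, smooth muscle signalling genes at 53.9%, striated muscle genes at 56.8% and endothelial genes at 72.8%. The library thus had low contractile, pericyte, fibroblast, glial, Cajal cell and mesothelial transcripts together. Its haematopoietic and epithelial transcripts were near those of its group, and its endothelial transcripts were in between.

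**Figure D5:**
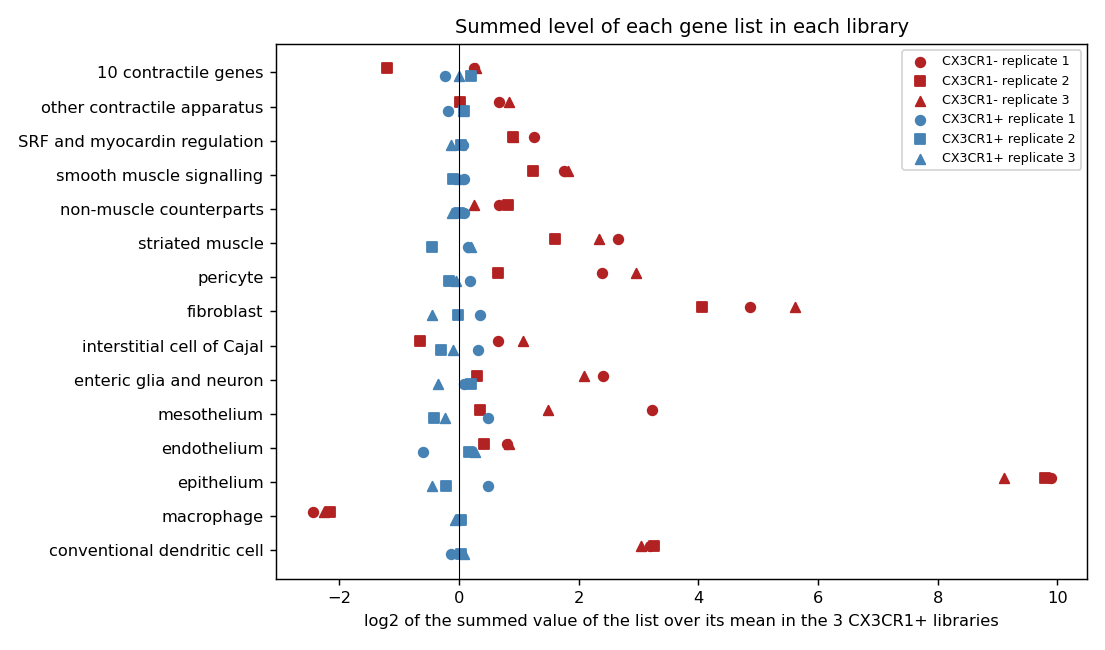
Log2 of the summed value of each gene list in each library over the mean of its sums in the 3 CX3CR1+ libraries (0 on the x axis), with CX3CR1- in red, CX3CR1+ in blue and a marker shape for each replicate. The contractile genes lie around 0 in both groups apart from CX3CR1- replicate 2, whereas fibroblast genes (ratio of means 31.7) and epithelial genes lie to the right in all CX3CR1- libraries and macrophage genes (ratio 0.206) to the left.

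The profile of the 10 genes over the 6 libraries was also compared with every other tested gene, as a Euclidean distance between centred log2(value + 1) profiles. The mean profile of the 10 genes was 0.41, -0.91 and 0.42 in CX3CR1- replicates 1 to 3 and -0.09, 0.23 and -0.06 in CX3CR1+ replicates 1 to 3. Des (0.396), Myl9 (0.403) and Myh11 (0.443) were closest to it among the 10, and Smtn (1.64) and Lmod1 (1.55) were the farthest. Of 17802 other genes, the nearest were Mesd (0.230), Rpl5-ps2, Colec10, AC124577.2, Ptdss2, Akap5, Smg8, Zfp821, Asb13 and Zmym3 (0.350). Mylk ranked at position 21 (0.394) and Hspb6, a small heat shock protein of muscle, at position 98 (0.548). These were the nearest of the 18 other genes of the contractile apparatus, and the rest spread from position 320 (Cald1) to position 16263 (Ldb3). The called genes of that list, Flna, Vcl, Actn1 and Ldb3, lay at position 11999 or beyond. Tested genes of smooth muscle signalling spread from position 1515 (Prkg1) to position 17066 (Itpr1). Within the contractile apparatus list, Synm, Tpm2, Csrp1, Tpm1 and Fhl1 came after Cald1, at positions 328, 418, 740, 964 and 1662. Pgm5, Pdlim7, Pdlim3, Ppp1r14a, Nexn and Ppp1r12b lay from position 1876 to position 9809. The list was thus divided, with part of it near the profile and the called genes far from it. The distances rest on 6 libraries, of which 1 was low for most of the 10 genes, and are a description only.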

How the data were processed

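RNA of MHCIIhi cells from the small bowel ME was sequenced by the authors after TRIzol extraction and TruSeq RNA v2 library preparation, which does not mark strand. Per the study's methods, the authors had reads pseudoaligned with Kallisto to mm10 transcripts (GENCODE release M16), imported with tximport and normalized by DESeq2. The deposited values are therefore a signal normalized between libraries, neither counts nor divided by length. No count test was run, because most values were not whole multiples of a read. Division by the estimated value of a single read gave whole numbers (within 0.01) for only 42.6 to 44.7% of non-zero values per library. The 6 libraries were grouped by their titles, with replicates numbered by library number.

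Values were tested with limma 3.58.1 in R 4.3.3 (two-sided, lmFit and eBayes, prior variance following intensity) after conversion to log2(value + 1), over genes with a mean of at least 10. A pseudocount of 1 understates changes of low genes. The test was checked on simulated data. The exact permutation test over samples cannot go below 0.1 for 3 against 3. Reads per gene are approximate and cover counting error only. Gene positions, transcript lengths and shared 31-base words came from GENCODE release M21 for GRCm38, and promoters from RefSeq. Gene lists were written by hand for their roles. The named genes are the 10, preset members of the lists, the extremes and the highest mean of each list, and the 10 nearest profiles. Of these, genes that no result turns on are left unnamed. The 10 genes and the lists were chosen with earlier results of these data known. Alternatives were pseudocounts of 0.5 and 10, other filters, 3 rescalings, no trend, library weights, a block and leaving out each library.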

Additional observations from a re-analysis of the deposited data

How the results depend on the processing

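The result that 1 contractile gene, Smtn, was called higher became 0 with a pseudocount of 10 (log2 fold change 0.97, adjusted p = 0.0235) and 0 with quantile normalization (0.86, adjusted p = 0.0696). With single libraries left out it ranged from 0 to 1, and only the fit without CX3CR1- replicate 2 kept it. The count of contractile genes called lower was 0 in all 16 alternatives. The other contractile apparatus had 0 genes lower in all 16 and 4 higher in all but the mean of at least 50, where Ldb3 was not tested and 3 were higher. The median log2 fold change of the 10 genes ranged from -0.50 to 0.31 with libraries left out, and the value above 0 came without CX3CR1- replicate 2. Signs of genes that were not called turned as well. Leaving out single libraries gave ranges from -0.62 to 0.084 for Acta2, from -0.62 to 0.23 for Actg2, from -0.53 to 0.39 for Myh11, from -0.53 to 0.29 for Myl9, from -0.57 to 0.32 for Des and from -0.40 to 0.78 for Synpo2. The cause was not tested. Over all genes, 2177 were called higher, and 1232 at a mean of at least 50, where fewer genes were tested. Equal totals without mitochondrially encoded genes moved the median of all genes to 0.17, and quantile normalization moved it to -0.15, while the 10 genes had medians of -0.044 and -0.055. Contractile genes above every CX3CR1+ library went from 2 to 4 without CX3CR1- replicate 2. Library numbers form adjacent pairs across the groups, but the correlation of paired deviations across genes was 0.104, 0.038 and 0.0142, so they were not taken as pairs. The replicate block gave 2165 genes higher and 1445 lower. Depth limits Tagln, Smtn and Lmod1 most, at about 11.9 to 25.0 reads in their lowest library.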
